A study of Mus musculus with 9 samples.

Results

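Globins are the subunits of haemoglobin, and the messages for the alpha type and the beta type, together with Alas2, the first enzyme of the erythroid haem pathway, were followed in 9 single cells of the mouse hypothalamic paraventricular nucleus. The set was named beforehand from these same data as 6 genes, Hbb-bs, Hbb-bt, Hbb-b2, Hba-a1, Hba-a2 and Alas2, of the 23530 gene symbols in the deposited table. Their levels are therefore a description and carry no test. The cells came from C57Bl6/N mice aged 21 to 28 days, all carry the same label of secretagogin-positive cell, and no other strain, genotype or treatment is named. They are called cell 1 to cell 9 after their labels. The labels do not tie cells to animals. All 9 were therefore taken as 1 sample, without p-values. No filter on low values was applied, and all 6 genes are accounted for below.

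Adult haemoglobin joins a pair of alpha chains with a pair of beta chains, each holding a haem group, and red cell precursors make both chains in near balance. In mice the alpha genes lie in a cluster on chromosome 11 and the beta genes in a cluster on chromosome 7, with embryonic genes (Hba-x, Hbb-y, Hbb-bh1) in the same clusters. Haem is built from glycine and succinyl-CoA in a chain of enzymes that starts and ends in the mitochondrion. Alas2 is the erythroid form of the first enzyme and Alas1 the form of other tissues. Immature red cells in the circulation still hold globin mRNA after the nucleus has been lost.

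Cell 4 held 12024 gene molecules. The shallowest library was cell 1 with 1021 and the deepest cell 5 with 26466. Spike-in RNAs gave 1962 molecules in cell 4, 614 in cell 9 and 2017 to 2184 in the other cells. The mitochondrial share was 22.6% in cell 4, within the range of 4.31% to 34.2% over the others. The names of the 9 columns give 9 different positions and share 0. The column of cell 9 names another lane than all the rest. What the positions and lanes stand for is not given in the names. Scgn, the gene by which the cells are labelled, held 0 molecules in cells 1, 4, 6 and 7 and 1 to 11 in the other 5. A count of 0 was given a limit of 3 molecules of the cell's total, which is 2.50 per 10000 gene molecules in cell 4 and 29.4 in cell 1. Intervals given with the values are exact, at 95%, and describe counting error alone.

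The sequences just before the transcription starts of the genes are shown first, because the members that were detected were detected in the same cell. Each window is the 150 bases upstream of the RefSeq start (GRCm38.p6), and 5 of the 6 genes had an entry in the promoter table. Hbb-b2 was not matched. The windows are chr11:32296342-32296491 (plus strand) for Hba-a2, chr7:103827929-103828078 (minus strand) for Hbb-bs, chr7:103813924-103814073 (minus strand) for Hbb-bt and chrX:150547267-150547416 (plus strand) for Alas2. Capitals mark every match, on either strand, to 4 short motifs known from erythroid promoters. These are the CCAAT box, searched as those 5 letters, the CACCC box, searched likewise, the core of the GATA site, searched as GATAA, and the core of the TATA box, searched as TATAA.
Hba-a2: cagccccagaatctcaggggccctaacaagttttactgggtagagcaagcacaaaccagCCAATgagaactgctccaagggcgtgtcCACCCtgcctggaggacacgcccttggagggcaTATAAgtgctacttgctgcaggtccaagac
Hbb-bs: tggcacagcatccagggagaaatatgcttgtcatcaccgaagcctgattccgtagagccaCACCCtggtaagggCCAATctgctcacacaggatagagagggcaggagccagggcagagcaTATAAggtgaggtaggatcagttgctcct
Hbb-bt: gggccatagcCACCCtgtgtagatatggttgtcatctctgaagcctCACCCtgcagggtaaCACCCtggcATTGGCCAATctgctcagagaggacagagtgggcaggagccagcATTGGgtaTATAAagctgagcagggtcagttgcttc
Alas2: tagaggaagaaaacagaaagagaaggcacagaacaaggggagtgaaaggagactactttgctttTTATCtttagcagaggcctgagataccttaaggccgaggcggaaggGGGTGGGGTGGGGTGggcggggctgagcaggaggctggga

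Each globin window held the CCAAT letters, the CACCC letters and the TATAA letters, and none held those of the GATA site. TATAA began 30 bases upstream of the start in Hba-a2, 29 in Hbb-bs and 28 in Hbb-bt. Of 32851 windows of this length, in which a gene can have several, 360 (1.10%) held the first 3 of these together. Taken singly, CCAAT was in 24.5%, CACCC in 37.4%, TATAA in 14.2% and GATAA in 13.3% of the windows. The Alas2 window held GATAA on the reverse strand, starting 86 bases upstream, and 3 adjoining reverse matches to CACCC between 40 and 26 bases upstream, with no CCAAT or TATAA. The matches did not overlap each other, and where capitals run on, matches adjoin. The Hba-a1 window was the same as that of Hba-a2 at all 147 positions that align. Hbb-bs and Hbb-bt were the same at 80.4% of aligned positions. Positions count from the RefSeq starts, and the GENCODE transcripts used further on start elsewhere for some genes. Those of Alas2, Hbb-bt and Hba-a2 begin inside the windows, that of Hba-a2 at the very end, and that of Hba-a1 begins before its window. The CACCC matches of Alas2 and all matches of Hba-a1 therefore lie within the GENCODE transcripts. So do the TATAA of Hbb-bt and its reverse CCAAT match starting 36 bases upstream, and its forward CCAAT match spans the transcript start. A match is a string of letters and not evidence of a bound site.

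Globin messages were found in cell 4 and in no other cell. Cell 4 held 1224 molecules of Hbb-bs, which encodes an adult beta chain, 1143 of Hba-a2, which encodes an adult alpha chain, and 131 of Hbb-b2, an adult beta row. It also held 9 molecules of Alas2. The rows of Hbb-bt and Hba-a1, the other adult beta and alpha genes, stood at 0 in all 9 cells. Thus the rows of 4 of the 6 genes held molecules, all 4 in cell 4 alone. The copies are alike in sequence, so a row at 0 does not show that its gene was silent. Of all 23530 symbols, 10.2% were detected in cell 4. Of the 9747 symbols detected in any cell, 3.5% were detected in cell 4 alone. The set was chosen for this pattern, so nothing is read from these shares.

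**Figure D1:**
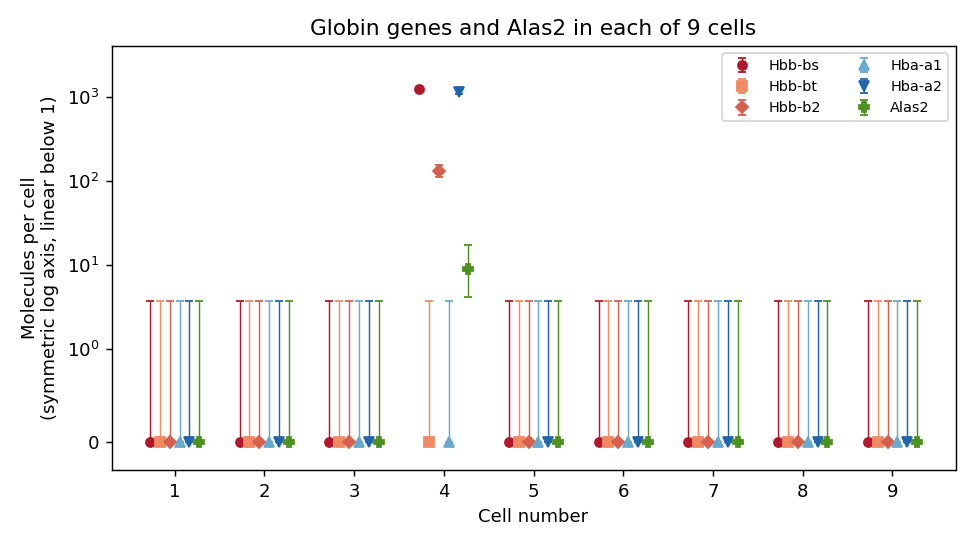
Molecules of each of the 6 genes (symbols) in each of the 9 cells (x axis), on a symmetric log axis that is linear below 1, with exact 95% Poisson intervals as lines. In cell 4 Hbb-bs stands at 1224, Hba-a2 at 1143, Hbb-b2 at 131 and Alas2 at 9, and every symbol of the other cells lies at 0.

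Hbb-bs reached 1018 molecules per 10000 gene molecules in cell 4 (interval 962 to 1077), or 10.2% of all its gene molecules. No row of cell 4 was higher. Its count in cells 1, 2, 3, 5, 6, 7, 8 and 9 was 0. Hba-a2 reached 951 per 10000 in cell 4, and its count was 0 in the other 8 cells. Hbb-b2 reached 109 per 10000 (interval 91.1 to 129) and ranked 10 among the rows of cell 4, again with 0 in the other 8 cells. Alas2 reached 7.49 per 10000 in cell 4 from its 9 molecules, for which the exact interval is 4.12 to 17.1 molecules.

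The other 8 cells gave 79346 gene molecules together and 0 molecules of the 6 genes. Over this pool the limit for a count of 0, 3 molecules, is 0.378 per 10000. The value in cell 4 was 2692 times that pooled limit for Hbb-bs, 2514 times for Hba-a2, 288 times for Hbb-b2 and 19.8 times for Alas2. These ratios leave out counting error and are not lower bounds. The exact upper limit for 0 in the pool is 0.465 per 10000, and the interval of Alas2 in cell 4 starts at 3.42 per 10000. The genes were chosen on this contrast. Cell by cell the limits are wider, from 1.13 per 10000 in cell 5 to 29.4 in cell 1. A globin level like that of cell 4 would lie far above each of them, whereas an Alas2 level like that of cell 4 lies below the limits of cells 1 and 6.

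Each of the 4 detected rows had at least 5 molecules in cell 4 and none elsewhere. Across the table, 244 symbols had at least 5 molecules in cell 4, and 5.74% of them had none in the other cells. Of the 14 symbols so counted, 4 are the genes of this set. Since the genes were chosen on this contrast, nothing is read from the difference.

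The alpha genes lie on chromosome 11, Hba-a1 at 32283511 to 32284465 and Hba-a2 at 32296489 to 32297298 (plus strand, GENCODE M21, GRCm38/mm10), each with 3 exons. The table lists each of these symbols at 2 numbered loci, and an Hba-a1 row stands directly before an Hba-a2 row at both places. Both Hba-a1 rows held 0 in cell 4. The Hba-a2 rows held 1143 (interval 1078 to 1211) and 1139 (interval 1074 to 1207). The 2 rows differed by 4 molecules, less than the counting SD of 47.8 expected for a difference between independent counts of that size. Their intervals overlap almost fully, so these counts do not tell whether the same molecules were counted at both loci or whether molecules were divided between them.

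The alpha copies can hardly be separated by sequence. In the GENCODE transcripts the coding sequences of Hba-a1 and Hba-a2 differed at 1 of 426 positions. Of the 505 windows of 50 bases in the Hba-a2 transcript, 86.9% occurred unchanged in that of Hba-a1. Read length and the rule for reads that fit several places are not given in the sources used here. This leaves the split between the alpha genes uncertain, and the row name Hba-a2 is used for alpha molecules of either gene.

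The beta genes lie on the minus strand of chromosome 7, Hbb-bt at 103812524 to 103813996 and Hbb-bs at 103826534 to 103828096, each with 3 exons in the transcript used. C57BL strains carry the haplotype with Hbb-bs and Hbb-bt, and the names Hbb-b1 and Hbb-b2 belong to the adult major and minor genes of the other common haplotype. GENCODE M21 lists neither Hbb-b1 nor Hbb-b2. In the table the Hbb-b2 row stands directly before Hbb-bt, and the Hbb-b1 row directly after Hbb-bs. In each of these neighbouring pairs 1 row held all the molecules of cell 4, Hbb-b2 with 131 against 0 for Hbb-bt, and Hbb-bs with 1224 against 0 for Hbb-b1. Whether the molecules of the Hbb-b2 row came from Hbb-bt was not tested.

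**Figure D2:**
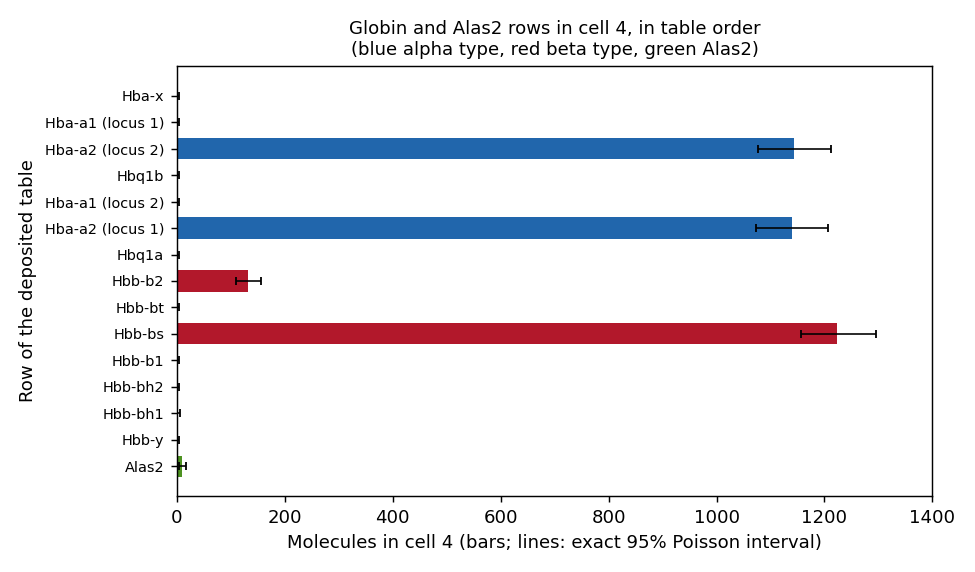
Molecules in cell 4 (bars from 0, lines for exact 95% Poisson intervals) for the globin rows and Alas2, in the order of the table. Both Hba-a2 rows reach nearly the same height, 1143 and 1139, while each row of Hba-a1, Hbb-bt and Hbb-b1 is at 0.

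Within the beta molecules of cell 4, Hbb-bs made up 90.3% (1224 of 1355, interval 88.6 to 91.9%) and Hbb-b2 made up 9.67% (interval 8.15 to 11.4%). The Hbb-bt row made up 0%, with an upper bound of 0.272%. That bound covers counting error of the row and is no bound on the Hbb-bt gene, whose molecules may stand in another row. Hbb-bs thus held 9.34 molecules for each of Hbb-b2 (interval 7.80 to 11.3). The coding sequences of Hbb-bs and Hbb-bt differed at 1 of 441 positions. Of the windows of 50 bases in the Hbb-bt transcript, 58.3% occurred in that of Hbb-bs, so these 2 transcripts share less than the alpha pair. The shares rest on how the authors' counting assigned reads among these rows.

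The embryonic beta-type genes were nearly absent. Hbb-bh1 held 1 molecule, in cell 4, and Hbb-y and Hbb-bh2 held none in any cell. Hba-x, the embryonic alpha-type gene, and Hbq1a and Hbq1b, the theta genes of the alpha cluster, also held none.

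The ratio of alpha to beta molecules in cell 4 was 0.844 (1143 to 1355, interval 0.779 to 0.913) when Hba-a2 was counted at its larger row. Beta was then in excess by more than counting error. With both Hba-a2 rows added, as if they held different molecules, alpha came to 2282 molecules and the ratio to 1.68 (interval 1.57 to 1.80), on the other side of an equal number. With the larger row and without Hbb-b2, the ratio was 0.934 (interval 0.861 to 1.01), which spans an equal number. Expressed per kilobase of transcript, the ratio was 0.966 for the larger row, with Hbb-b2 given the length of Hbb-bt. The values are counts of molecules, for which a division by length has no stated basis. The per-kilobase ratio also rests on the annotated lengths. Which chain was in excess could not be settled from these counts.

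**Figure D3:**
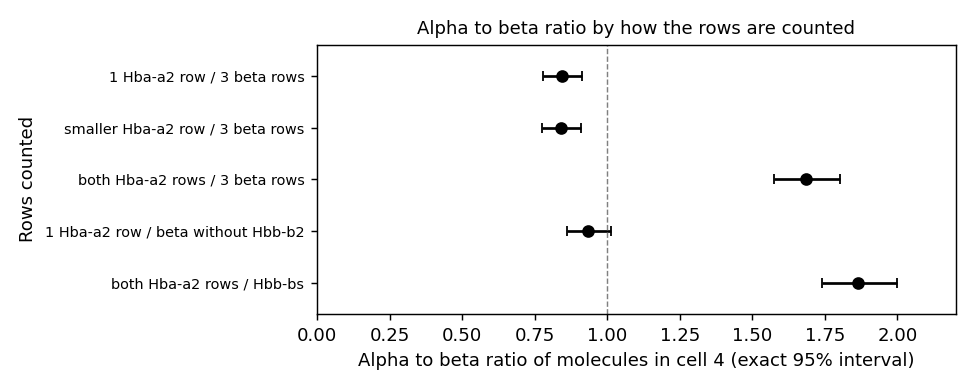
Alpha to beta ratio of molecules in cell 4 (points, lines for exact 95% intervals) for 5 ways of counting the rows, with a dashed line at an equal number. The ratio is 0.844 with 1 Hba-a2 row and 1.68 with both, on opposite sides of the line.

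The 5 globin genes together took 2498 molecules, 20.8% of the gene molecules of cell 4 (interval 20.1 to 21.5%). With both Hba-a2 rows in the sum they took 3637 molecules, or 30.2%. The next most abundant genes of cell 4, apart from mitochondrial and ribosomal protein genes, were Malat1, a nuclear long non-coding RNA, with 367 molecules, and Itm2a, a membrane protein gene, with 63. For each Alas2 molecule there were 278 globin molecules (interval 146 to 608). Per kilobase of transcript, cell 4 held 2063 molecules of Hba-a2, 1949 of Hbb-bs and 4.42 of Alas2. The row of Hba-a2 stands for either alpha gene, and at the transcript length of Hba-a1 its value would be 1635. The order of Hba-a2 and Hbb-bs per kilobase therefore depends on the length used, and in plain molecules on whether 1 Hba-a2 row or both are counted.

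Alas2 lies on the X chromosome at 150547375 to 150570638 (plus strand) and has 11 exons in the GENCODE transcript used. Alas1, its counterpart in other tissues, was found in other cells than Alas2. Cell 5 held 2 molecules of it, cell 7 held 1 and cell 4 held 0. These 3 molecules of Alas1 are too few to tell whether the genes differ in the cells that hold them. The remaining steps of haem synthesis were nearly empty in cell 4. Urod, which decarboxylates uroporphyrinogen, held 1 molecule there, against 4 in cell 8 and 1 in cell 9. Alad, which makes porphobilinogen, held 1 molecule in cell 5 and 2 in cell 7.

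Uros, which closes the porphyrin ring, held 1 molecule in cell 2 and 4 in cell 5. Fech, which inserts iron at the last step, held 1 in cell 5 and 2 in cell 7. Cpox and Ppox held none in any cell. Of the 9 enzymes, 2 were detected in cell 4 and 7 were not, beside 10.2% of all symbols in the table detected in cell 4. The enzymes summed to 8.32 per 10000 in cell 4 (interval 3.99 to 15.3), with 9 of the 10 molecules from Alas2. In the other cells the sum lay between 0 and 6.98 per 10000, the latter in cell 7.

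Genes that supply the haem pathway, by iron-sulphur clusters or mitochondrial transport, gave 8 molecules in cell 4. Of the 25 listed, 5 (20.0%) were detected there, against 10.2% of all symbols, Tmem14c, Lyrm4 and Isca1 with 2 molecules each and Isca2 and Atpif1 with 1. Their summed level was 6.65 per 10000, near the low end of the other cells, 5.89 to 27.2. Atpif1, an inhibitor of the mitochondrial ATP synthase, reached 27 molecules in cell 5 and 18 in cell 2. Slc25a37, the mitochondrial iron importer mitoferrin, and Slc25a38, a glycine carrier, held 0 in cell 4, where the limit for a single gene is 2.50 per 10000.

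Of the 15 genes of haem breakdown and transport, 4 (26.7%, against 10.2% of all symbols) were detected in cell 4 with 1 molecule each, Blvra, Pgrmc1, Pgrmc2 and Bach1. Hmox1, the inducible haem oxygenase, held none in any cell. Hmox2, the constitutive form, held 8 in cell 5, 2 each in cells 2 and 3, and 0 in cell 4. Pgrmc1, a haem-binding membrane protein gene, held 41 molecules in cell 5 and 21 in cell 3.

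Of 15 iron genes, 8 (53.3%, against 10.2% of all symbols) were detected in cell 4, at a summed level of 44.1 per 10000 (interval 33.0 to 57.7) against 2.95 to 91.1 in the other cells. Ftl1, the ferritin light chain gene, was highest in cell 4 with 23 molecules. In plain molecules cell 5 followed with 17, then cell 7 with 12 and cell 3 with 9, and the rest held 0. Cell 5 held 26466 gene molecules in all and cell 7 held 7160, so by level cell 7 stood above cell 5. Fth1, the ferritin heavy chain gene, held 9 in cell 4 and 105 in cell 5. In cells 4 and 7 the light chain molecules outnumbered those of the heavy chain, which held 4 in cell 7. The heavy chain led in the other 7 cells, in 5 of them with 1 to 6 molecules against 0. Ferritin has near-identical copies in the mouse genome, so these counts are uncertain.

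Slc40a1, which encodes the iron exporter ferroportin, held 7 molecules in cell 4 and none elsewhere. Tfrc, the transferrin receptor by which red cell precursors take up iron, was also highest in cell 4, with 4 molecules. Cell 2 held 2 of it, and cells 5 and 7 had 1 apiece. Pcbp1, an iron chaperone and RNA-binding protein, also held 4 in cell 4. Trf, which encodes transferrin, held 101 molecules in cell 5 alone.

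Regulators of red cell formation gave 4 molecules in the cell with globin. Of 17 listed genes, 3 (17.6%, against 10.2% of all symbols) were detected in cell 4, Lmo2 with 2 molecules and Tal1 and Nfe2l1 with 1 each. Lmo2 and Tal1 are also expressed by endothelial cells. Gata1, Klf1, Nfe2, Zfpm1, Gfi1b, Ikzf1, Epor and Hemgn held 0 in all 9 cells. Of the 17, 9 were detected in any cell, beside 9747 of all 23530 symbols, so nothing is read from the number at 0. The summed level was 3.33 per 10000 in cell 4, within the 0 to 20.4 of the other cells, where Nfe2l1 led with 14 molecules in cell 9 and Sox6 held 5 in cell 8.

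Structural and cytoplasmic red cell genes gave the same kind of count. Of the 29 found in the table, 8 (27.6%, against 10.2% of all symbols) were detected in cell 4, led by Gpx1 and Slc2a1 with 6 molecules each and by Car2 and Cat with 2 each. None of the 29 was in cell 4 alone, beside 3.5% of the symbols detected in any cell, so nothing is read from this. Prdx2, a peroxiredoxin gene, held the most molecules of the list, 15 in cell 5, 10 in cell 8, 6 in cell 2, 5 each in cells 3 and 9 and 0 in cell 4. Car2, a carbonic anhydrase gene, held 23 in cell 5. Slc4a1, Gypc, Sptb, Rhag, Kel, Ermap and Car1, which encode membrane proteins, membrane skeleton and carbonic anhydrase of red cells, were among the 14 at 0 in all 9 cells. Of the 29, 15 were detected in any cell, beside 9747 of all 23530 symbols, so nothing is read from the number at 0. The summed level was 16.6 per 10000 in cell 4 and a median of 19.8 in the others (2.95 to 28.1). Without globin rows in its total, cell 4 stood at 23.8, above that median.

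Genes tied to reticulocyte maturation, the stage at which organelles and most mRNA are cleared, were at a like level in cell 4 and elsewhere. Of 24 listed, 9 (37.5%) were detected in cell 4 and none there alone, against 10.2% of all symbols detected in cell 4 and 3.5% of those detected in any cell found there alone. Bsg held 10 molecules, Arl4a 7 and Bnip3l, a mitophagy receptor gene, 5. The summed level was 36.6 per 10000 against a median of 33.7 in the other cells (9.79 to 68.4). Many of these genes are active in most tissues, and Bsg and Slc2a1 also stand in the endothelial list.

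Endothelial markers were high in the cell that held the globins. Cell 4 held 175 molecules of endothelial markers, or 146 per 10000 (interval 125 to 169), from 17 of the 20 listed genes (85.0%, against 10.2% of all symbols), with 63 from Itm2a, 26 from Slco1a4, 18 from Egfl7 and 13 from Ly6c1. Tie1, Eng and Vwf held none. Cell 7 held 84 molecules, or 117 per 10000, from 13 of the same genes, and the remaining cells held 0 to 8.94 per 10000. Cell 7 held 0 molecules of all 6 globin and haem genes in 7160 gene molecules, a limit of 4.19 per 10000 for each. Their part in the globin result was not tested.

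Of 12 mural markers, 3 (25%, against 10.2% of all symbols) were detected in cell 4, Rgs5 with 8 molecules and Myl9 and Vtn with 1 each, and the other cells held at most 2 molecules of the list. Markers of other blood cells and of microglia held no molecules in cell 4. None of the 13 leukocyte markers had a molecule in any of the 9 cells, and none of the 9 platelet or 12 microglia and macrophage markers had one in cell 4. Of all 23530 symbols, 10.2% were detected in cell 4 and 9747 in any cell. The lists are short, so no absence of such cells is read from these counts. Neuron markers in cell 4 came to 37 molecules, 28 of them Meg3, a long non-coding RNA. Their level there, 30.8 per 10000, was above cell 8 at 28.1 and below the other 7 cells, which reached from 102 to 607. The highest, cell 1, had 61 of its 62 molecules from Meg3.

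**Figure D4:**
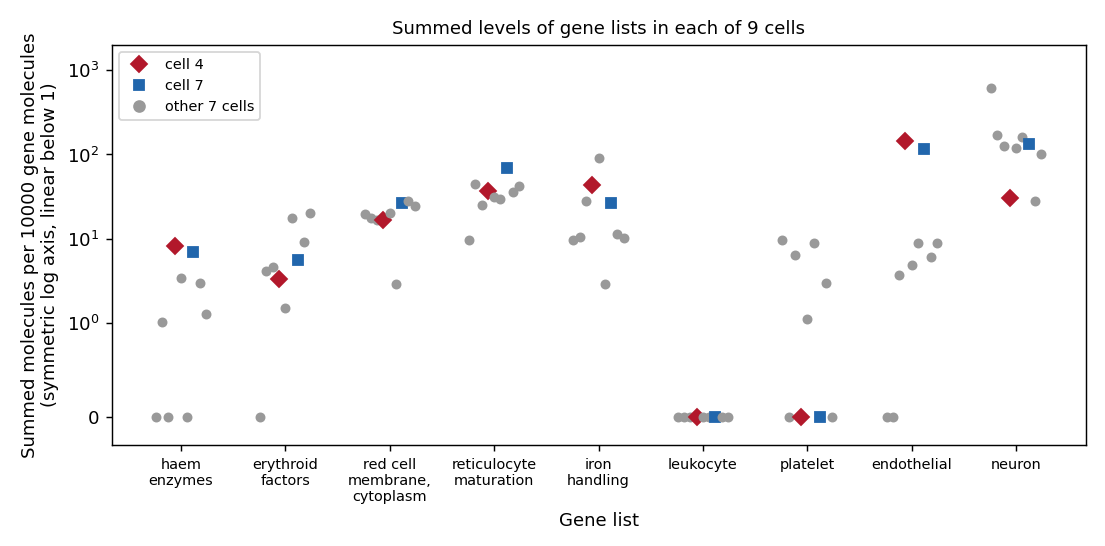
Summed molecules of 9 gene lists per 10000 gene molecules (y axis, symmetric log, linear below 1) in each of the 9 cells, with cell 4 as red diamonds, cell 7 as blue squares and the others in grey. Cell 4 lies among the other cells for the erythroid factor, red cell membrane and reticulocyte lists, and beside cell 7, above the rest, for endothelial markers at 146 and 117.

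Globins of other tissues held few molecules in any cell. Ngb, which encodes neuroglobin of nerve cells, was found in cell 5 with 3 molecules and in cells 3 and 7 with 1. Cygb, cytoglobin, held 2 in cell 5 and 1 in cell 3, and Adgb, androglobin, held 3 in cell 8. Mb, myoglobin, held 1 molecule, in cell 4. Of the 11 further globins found in the table, 2 (18.2%, against 10.2% of all symbols) were detected in cell 4, both with 1 molecule, and 6 in no cell. Of all 23530 symbols, 9747 were detected in any cell. The summed level of the 11 was 1.66 per 10000 in cell 4 (interval 0.201 to 6.01). In the others it had a median of 0.698 (0 to 2.28).

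Genes whose pattern was most like that of the globins were taken as those with at least 5 molecules in cell 4 and the largest part of their summed level over the 9 cells in cell 4. The first 10 had 100% of that level in cell 4, so their order rests on their molecules there. Mepce, which caps the 7SK RNA, held 9, Ctla2a and Rgs5, a regulator of G-protein signalling, held 8 each, Slc40a1 held 7 and Slco2b1, an organic anion transporter, held 6. Actn4 and Myh9, of the actin cytoskeleton, Agt, which encodes angiotensinogen, Car4, a membrane-bound carbonic anhydrase, and Cxcl12, a chemokine, held 5 each. Mepce matched Alas2 exactly in counts over the 9 cells, and all 10 were far below the globins in count. Likeness over 9 cells with molecules in 1 of them is a weak measure and gives no group of related genes.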

How the data were processed

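Single cells from the paraventricular nucleus, dissected from slices 300 µm thick, were captured on a microfluidic chip and their cDNA was amplified for 21 PCR cycles, per the labels' protocols. The authors deposited whole-number counts of molecules per row, 24378 gene rows and 92 spike-in rows for 9 cells. The submitters' processing notes name mm10 and Bowtie. How duplicate reads were collapsed, the annotation, the strand setting and the rule for reads with several places are not given in the sources used here. Columns were matched to cells by the number in their names, with 0 left unassigned. For a symbol with several numbered loci the largest row per cell was used, and totals hold every gene row. Levels are molecules per 10000 gene molecules. Intervals are exact Poisson for counts and Clopper-Pearson for shares at 95%, and a ratio's interval was derived from the share. No doublet caller was run on so few cells.

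The members, gene lists, marker lists and alternatives were chosen with earlier results of these data known. The rule named all members, other globins and haem enzymes, up to 4 genes of each other list with the most molecules in cell 4 and up to 2 with the most outside it, and the 10 genes most like the members; genes named as being at 0 were chosen after their values were seen. Values of some listed genes are not reported here, and they stay in the sums and counts of their lists. Of the listed symbols, Ahsp, Epb4.9, Epb42, Hbb-bh0 and Hbb-bh3 were not matched to a row; Epb4.9 and Epb42 are other names of listed genes. The further marker lists, for oligodendrocytes, astrocytes, ependymal cells and tanycytes, and fibroblast-like cells, gave 1, 7, 10 and 0 molecules in cell 4. Transcript sequences and positions came from GENCODE M21, in which 21996 of the 23530 symbols were found, and promoters from RefSeq (GRCm38.p6). Call rules and intervals were tested on simulated data. Tables were handled with pandas 2.3.3 and numpy 2.4.6, intervals came from scipy 1.17.1, alignments from biopython 1.88 and plots from matplotlib 3.10.9, all under Python 3.11.15.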

Additional observations from a re-analysis of the deposited data

Results flagged for a closer look

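The 6 globin and haem genes were chosen for their counts in cell 4 and were not examined. Each of 27 other measures, detected genes of the further globins and haem enzymes and the summed gene lists, was examined for 1 cell whose level lay farther from the nearest other cell than Dixon's 95% critical value for 9 values allows, as a part of the whole range. In all 13 measures had such a cell, 2 of them in cell 4. A measure with molecules in 1 cell passes by construction. A chance rate of about 1 in 20 holds for normally distributed values, which sparse counts from cells of unlike depth are not. No chance rate can therefore be set beside the 13.

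Cell 4 stood apart for Hbb-bh1 and Mb, both at 0.832 molecules per 10000, a level that is 1 molecule. Among the haem enzymes, cell 7 stood apart for Alad and Fech, both at 2.79 per 10000, and cell 8 for Urod at 3.04. Cell 8 also stood apart for the globin relative Adgb at 2.28. These rest on 2 to 4 molecules.

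Of the summed lists, iron genes were highest in cell 5 at 91.1 per 10000 and red cell membrane and cytoplasm genes lowest in cell 6 at 2.95. Cell 1 was highest for neuron markers at 607 and cell 5 for oligodendrocyte markers at 167. Of the 62 neuron marker molecules of cell 1, 61 were Meg3, in a library of 1021 gene molecules. Cell 8 was highest for astrocyte markers at 22.0, for ependymal and tanycyte markers at 281 and for fibroblast-like markers at 1.52.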

How the results depend on the processing

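The alpha to beta ratio of 0.844 was 1.68 with both Hba-a2 rows, and 1.86 with both rows and Hbb-bs as the only beta row. It was 0.934 without Hbb-b2 and with Hbb-bs as the only beta row. Per kilobase it was 0.966, and 1.06 per kilobase with Hbb-bs as the only beta row. It stayed within its interval with the smaller Hba-a2 row. The Hbb-bs share of beta molecules, 90.3%, was 100% with Hbb-b2 left out. The globin share of cell 4, 20.8%, was 30.2% with both Hba-a2 rows, 26.8% without mitochondrial rows, 17.9% with spike-ins in the total and 22.9% with 1 Hba-a2 row in both sum and total. The count of 4 detected members was the same at 2 or 3 molecules, and it was 0 without cell 4. It was also 4 in a single random thinning of cell 4 to 1021 molecules, but Alas2 kept 1 molecule where 0.764 is expected, so this says nothing about its stability. Without globin rows in the total, the reticulocyte, endothelial and neuron sums of cell 4 were 52.5, 209 and 44.1 per 10000. The haem enzyme, erythroid factor and red cell membrane and cytoplasm sums were then 11.9, 4.77 and 23.8, within their intervals. The genes detected in cell 4 alone numbered 341, and 14 with at least 5 molecules. The per-kilobase ratios, the ratio of 1.86 and the share with 1 row in both were chosen after seeing the data. No paired analysis was possible because there is 1 group. Depth limits the low genes: in cell 4, Alas2 rests on 9 molecules, Urod on 1 and each detected erythroid factor on 1 or 2.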
